A study of Rattus norvegicus with 48 samples.

Results

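The 9 genes described here, Abcb1a, Abcb4, Abcc2, Abcc3, Abcg2, Slco1a1, Slco1a4, Slco1b2 and Slco2b1, encode transporters that carry drugs, bile acids and bilirubin out of or into liver cells. They were chosen by name as drug efflux and uptake transporters, and their 14 probesets were found by gene symbol among 31042 probesets for 14863 genes. Efflux pumps account for 5 genes and 7 probesets, and uptake carriers for 4 genes and 7 probesets. A total of 13 probesets were annotated to 1 of the genes alone, and the remaining one, of Abcb1a, was shared with Abcb1b. Of the 14, 13 gave a signal on all 48 arrays, and the exception was the only probeset of Abcc3. Where a gene had several probesets of its own, the brightest was used. A comparison could be tested for 8 of the 9 genes, Abcc3 being the one left out.

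Liver RNA came from the left lateral lobe of male Fischer F344 rats, aged 9 weeks at the start and fed CT1 diet ad libitum. The diet held phenobarbital (PB), a barbiturate that induces drug-metabolizing enzymes, at 50, 500 or 1000 ppm, or no PB for the controls, for 1, 3, 7 or 14 days. Each of the 16 groups held 3 rats with 1 Affymetrix array each, so 12 arrays stood behind each dose over the 4 days. Arrays were placed by animal number, which put 7 of the 48 in another group than their labels name. These were 2 of the 3 rats at 50 ppm on day 7, and 1 rat each at 50 ppm on days 3 and 14 and at 500 ppm on days 1, 3 and 7.

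Arrays listed between 13506 and 16378 signals with a median of 15337, and the median listed signal ran from 422 to 565. By the leading digits of their descriptions the arrays fell into 6 sets, called runs here, each with all 4 doses. The labels do not say what these digits stand for. In the first run, of 9 arrays, the median number of listed signals was 14260, and in the other runs it was 15265 to 15978. All 7 hepatocyte markers on the array were listed on every array, and none passed the test at 1000 ppm (adjusted p under 0.05 in limma). Since liver is a mixture, fewer cells of a type and less RNA per cell cannot be told apart.

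Hepatocytes take compounds up from sinusoidal blood through organic anion transporting polypeptides, the Slco family, and metabolize them. ATP-binding cassette (ABC) pumps then export the products, either across the canalicular membrane into bile or across the basolateral membrane back into blood. PB acts through the constitutive androstane receptor (CAR, gene Nr1i3), which with the pregnane X receptor controls many genes of drug metabolism and transport by binding hexamer half-sites in their regulatory DNA.

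RefSeq promoter windows, from 250 bases before to 50 bases after each start site, were available for 8 of the 9 genes on build GRCr8, and Abcc3 was the one without. The windows of the 3 genes that were higher at both upper doses and of Slco1a1, the neighbour of Slco1a4 that was lower, are shown so that they can be read beside the signals. Each runs 5′ to 3′ on the strand of the gene, with capitals for matches on either strand to AGGTCA (the nuclear receptor half-site), AGTTCA (a variant of it), TGACNNNGC (the antioxidant response element core), TATAAA (the TATA box) or GTTAAT (the HNF1 core). Abcb1a lies at chr4:26397599-26397898 on the minus strand, Abcc2 at chr1:252613625-252613924 on the plus strand, and Slco1a4 at chr4:176495797-176496096 and Slco1a1 at chr4:176681943-176682242 on the minus strand.
Abcb1a: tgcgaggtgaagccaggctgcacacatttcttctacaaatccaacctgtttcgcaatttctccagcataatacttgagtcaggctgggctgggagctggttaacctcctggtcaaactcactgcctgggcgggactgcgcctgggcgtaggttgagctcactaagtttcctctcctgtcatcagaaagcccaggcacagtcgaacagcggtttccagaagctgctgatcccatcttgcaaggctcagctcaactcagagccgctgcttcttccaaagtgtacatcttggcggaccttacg
Abcc2: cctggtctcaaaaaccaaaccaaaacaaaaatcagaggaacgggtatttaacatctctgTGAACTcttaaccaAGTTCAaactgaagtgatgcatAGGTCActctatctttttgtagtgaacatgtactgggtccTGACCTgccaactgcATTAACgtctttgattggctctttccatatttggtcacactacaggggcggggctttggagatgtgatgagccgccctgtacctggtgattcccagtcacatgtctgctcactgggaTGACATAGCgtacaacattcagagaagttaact
Slco1a4: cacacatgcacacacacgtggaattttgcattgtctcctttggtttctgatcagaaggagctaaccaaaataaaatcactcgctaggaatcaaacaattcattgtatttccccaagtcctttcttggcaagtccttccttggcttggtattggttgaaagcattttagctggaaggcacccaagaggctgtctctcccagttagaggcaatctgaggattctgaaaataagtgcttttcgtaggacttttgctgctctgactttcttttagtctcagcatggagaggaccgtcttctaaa
Slco1a1: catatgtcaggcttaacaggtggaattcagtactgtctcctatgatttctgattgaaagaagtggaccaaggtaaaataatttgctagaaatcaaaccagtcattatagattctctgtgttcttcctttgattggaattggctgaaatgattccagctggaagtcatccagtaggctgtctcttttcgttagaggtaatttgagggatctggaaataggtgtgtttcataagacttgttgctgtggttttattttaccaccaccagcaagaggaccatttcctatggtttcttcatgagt

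The Abcc2 window held 2 matches to AGGTCA, 2 to AGTTCA, 1 to TGACNNNGC and 1 to GTTAAT, with no overlap between matches. Matches were also found in Slco1b2, which was not called (the half-site, its variant, the TATA box and the HNF1 core), and in Abcb4, which was lower at 1000 ppm (the half-site variant). Abcb1a, Slco1a4 and Slco1a1 held none of the 5, nor did Abcg2 and Slco2b1. Among all 27457 promoter windows of the same length, AGGTCA was found in 15.7%, AGTTCA in 14.4%, TGACNNNGC in 12.2%, TATAAA in 14.3% and GTTAAT in 7.37%. A match is a run of letters and not a known binding site, and a window without one says nothing about binding elsewhere. Slco1b2, Slco1a4 and Slco1a1 are consecutive protein-coding genes on chromosome 4, and Abcb1b is the only such gene between Abcb1a and Abcb4. The Slco1a4 and Slco1a1 windows were 66.6% identical (211 of 317 aligned columns), against 42.0% to 54.3% for the other 27 pairs of the 8 windows.

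Averaged over the 4 days, Abcb1a, Abcc2 and Slco1a4 rose at 500 and 1000 ppm PB and Slco1a1 fell at both doses. Abcb1a encodes the canalicular multidrug pump P-glycoprotein, Abcc2 the canalicular conjugate exporter Mrp2, and Slco1a4 and Slco1a1 are basolateral organic anion carriers. Abcb4, the canalicular phospholipid floppase, was also lower at 1000 ppm. Neither the 4 days singly nor their average showed a called change at 50 ppm in the brightest probeset of any of the 8 genes. A change is called at an adjusted p under 0.05 in limma, with Benjamini-Hochberg adjustment over all probesets tested.

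At 500 ppm, 3 of 8 genes were called higher and 1 lower, where 4.64% of all 12599 probesets tested were higher and 3.99% lower. At 1000 ppm, 3 were higher and 2 lower, where 7.11% of 12680 probesets were higher and 7.01% lower. At 50 ppm, 0 of 8 were called by limma, 1 had an unadjusted p under 0.05, and 0.149% of 12782 probesets were called. The median log2 change of the 8 genes was 0.05, -0.02 and -0.07 at 50, 500 and 1000 ppm, and the medians of all probesets tested were 0.00, 0.00 and -0.01. The 8 genes include called changes in both directions.

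**Figure D1:**
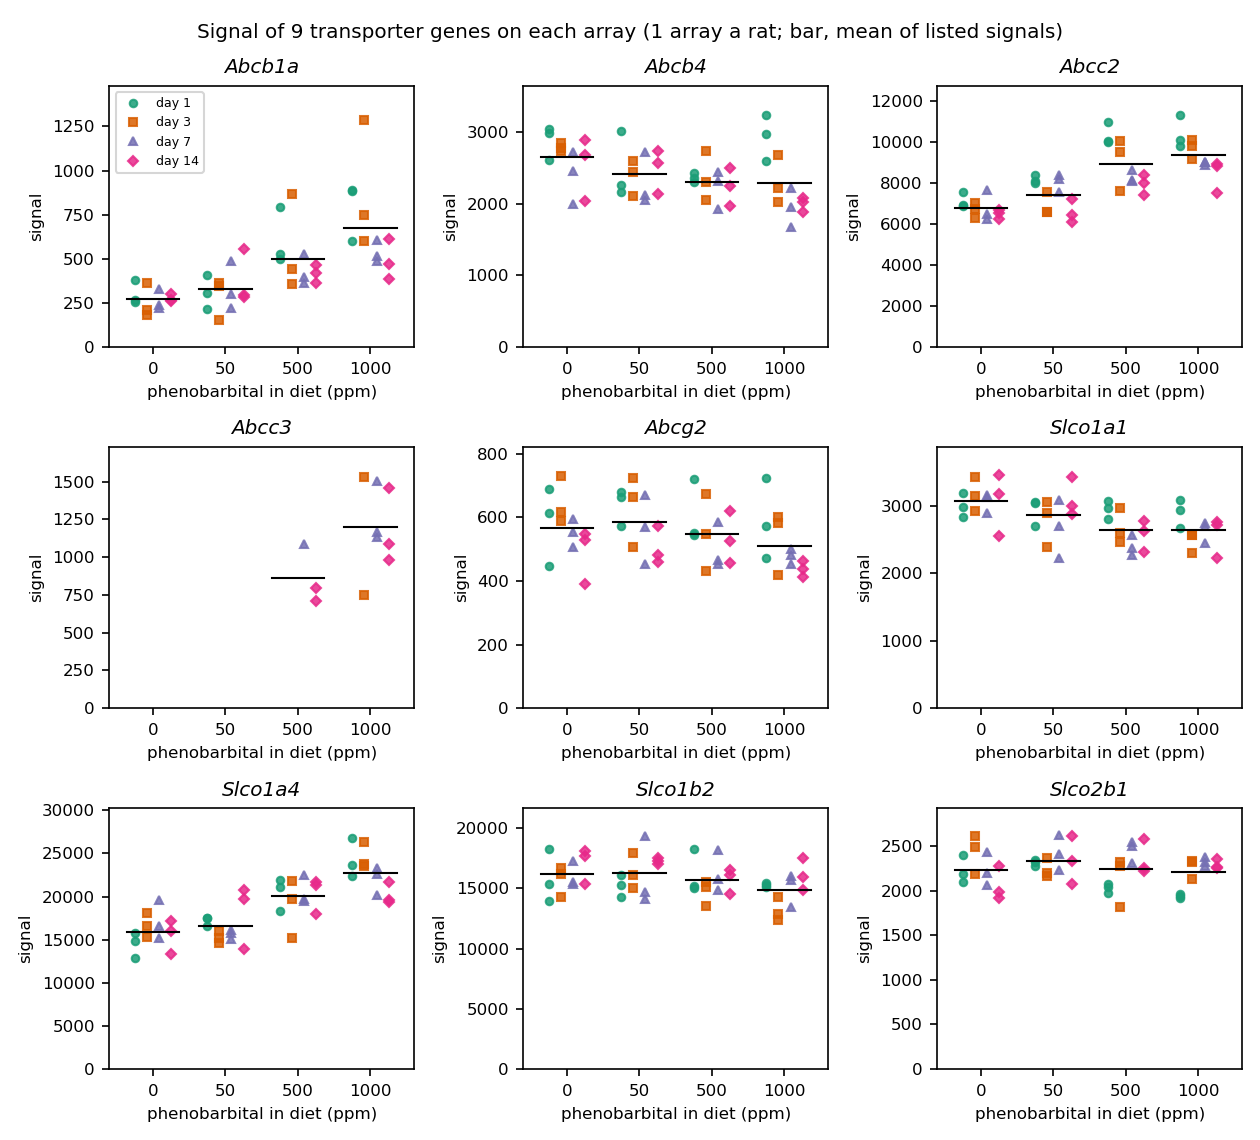
Deposited MAS5 signal (linear scale) of each of the 9 transporter genes against PB in the diet in ppm, with 1 point per array, the day as colour and shape, and a bar at the mean of the listed signals of a dose. For Abcb1a all 12 arrays at 1000 ppm lie above all 12 control arrays, and Abcc3 has points only at 500 and 1000 ppm.

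Among the efflux pumps tested, Abcb1a had the largest fold change. Its signal over 12 arrays a dose (lowest, median and highest) was 182, 261 and 381 in controls, 156, 305 and 558 at 50 ppm, 357, 451 and 869 at 500 ppm and 384, 603 and 1288 at 1000 ppm. All 12 arrays at 1000 ppm and 9 of 12 at 500 ppm lay above the highest control. The fold change over control was 1.80 at 500 ppm (log2 0.85 ± 0.17 SE, adjusted p = 0.000857 in limma) and 2.40 at 1000 ppm (log2 1.26 ± 0.17, adjusted p = 1.149e-06). At 50 ppm it was 1.16 with a 95% interval of 0.915 to 1.48.

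On day 1 the 3 signals of Abcb1a were 598, 890 and 883 at 1000 ppm, against 381, 256 and 267 in controls. On day 3 they were 599, 748 and 1288, against 182, 364 and 212 in controls. The doses did not overlap with controls on either day, and the fold changes of 2.62 (adjusted p = 0.0222 in limma) and 3.46 (adjusted p = 0.00102) were both called. Here and below, overlap of 3 arrays with 3 is description only, since the share of all probesets without overlap is not given. On days 7 and 14 the 1000 ppm signals were 517, 606 and 488 and then 471, 384 and 612. Same-day controls were 221, 328 and 237 and then 301, 258 and 264, again without overlap. From this probeset the fold changes of 2.07 and 1.75 on those days missed the threshold (adjusted p = 0.107 and 0.201, log2 SE 0.34). As the mean over the gene's own probesets, day 7 was called (log2 1.09, adjusted p = 0.0113 in limma). The day 1 call was lost without control replicate 2 or 3 or 1000 ppm replicate 2 or 3 of that day (adjusted p = 0.0762, 0.0875, 0.0891 and 0.0924 in limma).

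The other probesets of Abcb1a ran the same way. The dimmer one of its own had log2 changes of 0.70 and 1.05 at 500 and 1000 ppm, and the one shared with Abcb1b had 0.86 and 1.26. At 1000 ppm the dimmer one was called on days 1, 3 and 7, at log2 1.05, 1.24 and 1.13 (adjusted p = 0.0478, 0.00888 and 0.0368 in limma). The calls of days 1 and 7 were lost with placing by labels (adjusted p = 0.119 and 0.104) and with the run as a fixed block (0.757 and 0.702). Leaving out 1 array ended these daily calls in 30, 2 and 5 of 48 fits. The own probesets of Abcb1a correlated with each other over the 48 arrays at r = 0.70. The shared probeset cannot tell the 2 genes apart, and at 1000 ppm it was called higher on all 4 days, with log2 changes of 1.08, 1.90, 1.03 and 1.02 on days 1, 3, 7 and 14. Its calls on days 1, 7 and 14 were lost when the 7 arrays were placed by their labels (adjusted p = 0.0598, 0.0804 and 0.0571 in limma). They were also lost without 1000 ppm replicate 2 of day 1 (adjusted p = 0.0546), control replicate 3 or 1000 ppm replicate 1 of day 7 (0.112 and 0.0911) and control replicate 3 or 1000 ppm replicate 1 of day 14 (0.0671 and 0.0506). With the array run as a fixed block the day 3 call held (adjusted p = 9.169e-05), and those of days 1, 7 and 14 were lost (adjusted p = 0.474, 0.825 and 0.363). The shared probeset was also called at 500 ppm on days 3 and 7 (log2 1.46 and 0.89, adjusted p = 0.000308 and 0.0310 in limma). Both of these were lost with the run as a fixed block (adjusted p = 0.5665 and 0.906). That of day 7 was also lost with placing by labels (0.0561), under quantile normalization (0.0747) and after division by the array median (0.0523). Abcb1b encodes a second P-glycoprotein of the rat.

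Abcc2 was higher at the same doses, by a smaller factor and with less spread. Its signal (lowest, median and highest) was 6227, 6710 and 7677 in controls, 6097, 7565 and 8407 at 50 ppm, 7412, 8503 and 10977 at 500 ppm and 7531, 9113 and 11314 at 1000 ppm. All but 1 of the 12 arrays at 1000 ppm, and 10 of 12 at 500 ppm, exceeded the highest control. Fold changes were 1.31 at 500 ppm (log2 0.39 ± 0.05, adjusted p = 3.056e-07 in limma) and 1.38 at 1000 ppm (log2 0.47 ± 0.05, adjusted p = 3.206e-09). The 50 ppm average was 1.09 times control, with an interval of 1.02 to 1.17 and an adjusted p of 0.463.

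At 1000 ppm on day 1 the Abcc2 signals were 9819, 10100 and 11314, against 6857, 7577 and 6918 in controls. At 500 ppm on that day they were 10045, 10005 and 10977, within or near the range at 1000 ppm. On day 14 they were 8846, 7531 and 8918 at 1000 ppm, against 6251, 6515 and 6690 in controls. Groups did not overlap on either day. Abcc2 was called on each day at 1000 ppm, with fold changes of 1.46, 1.45, 1.33 and 1.30 on days 1, 3, 7 and 14 (adjusted p = 0.000971, 0.000366, 0.0153 and 0.0204 in limma). At 500 ppm the calls were those of day 1 (1.45-fold, adjusted p = 0.00150) and day 3 (1.35-fold, adjusted p = 0.0133). On days 7 and 14 the values at 500 ppm were 1.22-fold each, with adjusted p of 0.081 and 0.121.

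Some daily Abcc2 calls depended on single arrays or on the placing. With the 7 arrays placed by their labels, the calls at 500 ppm on days 1 and 3 and at 1000 ppm on days 7 and 14 were lost (adjusted p = 0.490, 0.155, 0.148 and 0.144 in limma). The day 14 call at 1000 ppm was lost after quantile normalization (log2 0.29, adjusted p = 0.0652 in limma) and after division of each array by its median (log2 0.14, adjusted p = 0.343). It was also lost without control replicate 1 or 2 or 1000 ppm replicate 1 or 3 of that day (adjusted p = 0.0548 to 0.0976). The day 7 call at 1000 ppm was lost without control replicate 2 or 3 or 1000 ppm replicate 1 or 3 (adjusted p = 0.0516 to 0.115). The day 3 call at 500 ppm was lost without control replicate 2 or 500 ppm replicate 2 or 3 (adjusted p = 0.0829, 0.0855 and 0.129), and without all 7 arrays (adjusted p = 0.164).

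Abcb4 moves phosphatidylcholine into bile and was the only pump called lower. Its signal (lowest, median and highest) was 2004, 2733 and 3050 in controls, 2047, 2354 and 3017 at 50 ppm, 1922, 2314 and 2736 at 500 ppm and 1680, 2148 and 3236 at 1000 ppm. The ranges overlapped at every dose, and 3 of the 12 arrays at 1000 ppm lay below the lowest control. The average at 1000 ppm was 0.857 times control (log2 -0.22 ± 0.08, adjusted p = 0.0428 in limma), and at 500 ppm 0.870 times (adjusted p = 0.0956, and 0.0372 after division of each array by its median). On day 1 at 1000 ppm its log2 change was 0.02, and on days 3, 7 and 14 it was -0.28, -0.30 and -0.33, none of them called. The day 14 value was -0.57 and called after division of each array by its median (adjusted p = 0.00918).

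The Abcb4 call was lost in 17 of the 48 fits that each left out 1 array, all of them control or 1000 ppm arrays, with adjusted p from 0.0525 to 0.0894 in limma. The arrays were control replicates 2 and 3 of day 1, 1 to 3 of day 3, 2 and 3 of day 7 and 1 and 3 of day 14. At 1000 ppm they were replicates 1 and 2 of days 1, 3 and 7 and 1 and 3 of day 14. It was also lost with the array run as a fixed block (adjusted p = 0.0702) and without the 7 arrays whose labels disagree (adjusted p = 0.0529).

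Abcg2, the breast cancer resistance protein of the canalicular membrane, did not pass the test at any dose. Its signal (lowest, median and highest) was 412, 477 and 724 at 1000 ppm, against 389, 572 and 730 in controls, and the ranges overlapped almost wholly. The average at 1000 ppm was 0.897 times control, with a 95% interval of 0.787 to 1.02 and an adjusted p of 0.300 in limma.

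Abcc3, the basolateral exporter Mrp3 that returns conjugates to blood, gave a signal on 11 arrays only. None of the 24 control and 50 ppm arrays listed one, against 3 of 12 at 500 ppm and 8 of 12 at 1000 ppm. No array of day 1 listed it. At 500 ppm the listed signals were 1088 on day 7 and 796 and 713 on day 14. At 1000 ppm they were 749 and 1532 on day 3, 1170, 1133 and 1504 on day 7, and 984, 1089 and 1458 on day 14. Thus 8 of the 9 arrays at 1000 ppm from day 3 on listed it.

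The deposited table does not say what an unlisted signal means, so no fold change or test was made for Abcc3. The listed signals were not faint, since each lay above 64.0% to 79.6% of the signals of its array. They came from all 6 runs, and 1 of the 11 was on an array whose labels disagree. Among 12366 probesets listed on some but not all arrays, 5 (0.0404%) were listed on no control array and on at least 8 at 1000 ppm. The reverse, no array at 1000 ppm and at least 8 controls, also held for 5 (0.0404%).

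**Figure D2:**
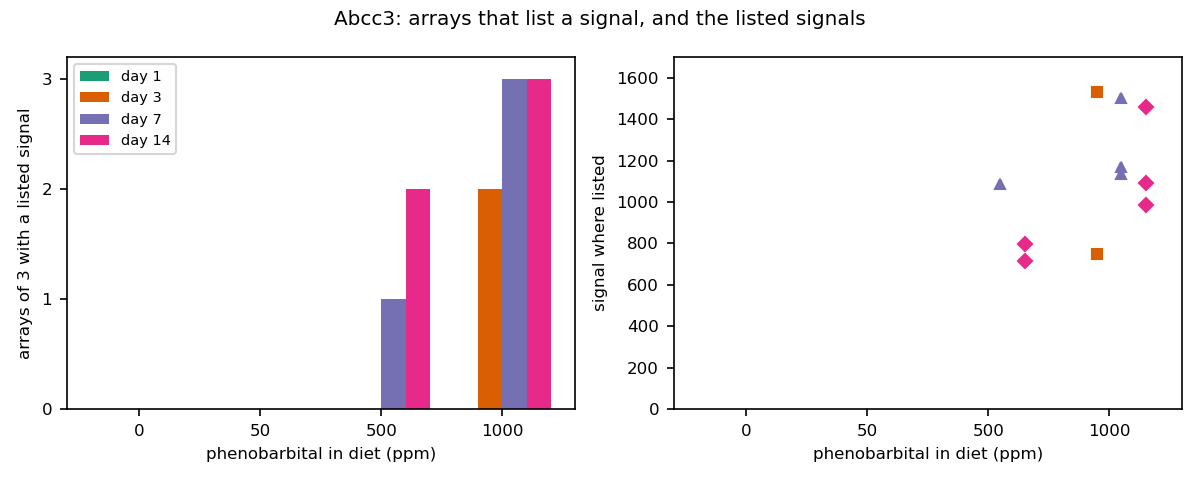
Abcc3 by PB in the diet in ppm and by day (colour): left, how many of the 3 arrays of a group list a signal, and right, the listed signals (linear scale, 1 point per array). No array lists it in controls, at 50 ppm or on day 1, and at 1000 ppm on days 7 and 14 all 3 arrays do.

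Of the uptake carriers, Slco1a4 (Oatp1a4), which takes up organic anions and cardiac glycosides, was the one called higher. Its signal (lowest, median and highest) was 12833, 15900 and 19566 in controls, 13888, 16113 and 20813 at 50 ppm, 15190, 20421 and 22513 at 500 ppm and 19355, 22943 and 26811 at 1000 ppm. Above the highest control lay 10 of 12 arrays at 1000 ppm and 8 of 12 at 500 ppm. Fold changes were 1.26 at 500 ppm (log2 0.33 ± 0.07, adjusted p = 0.000662 in limma) and 1.43 at 1000 ppm (log2 0.52 ± 0.07, adjusted p = 3.396e-07). At 50 ppm the fold was 1.04 with an interval of 0.948 to 1.14.

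By day, the Slco1a4 signals at 1000 ppm were 23615, 22334 and 26811 on day 1, against 12833, 14828 and 15766 in controls. On day 3 they were 23767, 23499 and 26333, against 16531, 18115 and 15346 in controls. These groups did not overlap, and the fold changes of 1.68 (adjusted p = 0.000971 in limma) and 1.47 (adjusted p = 0.00808) were called. On days 7 and 14 the groups did not overlap either, but 1.29-fold and 1.31-fold were not called (adjusted p = 0.156 and 0.0942). At 500 ppm no day was called from this probeset, with log2 changes of 0.50, 0.17, 0.27 and 0.39 on days 1, 3, 7 and 14. The day 1 value (adjusted p = 0.0550) was called after division by the array median (adjusted p = 0.0308), over probesets listed on all arrays (0.0311), with the title number as a block (0.0196) and as the mean over probesets (0.0221). The day 3 call at 1000 ppm was lost without control replicate 3 (adjusted p = 0.0548) or 1000 ppm replicate 3 (adjusted p = 0.0651).

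The second probeset of Slco1a4 followed the first over the 48 arrays (r = 0.89). Its averages were 0.48 at 500 ppm (adjusted p = 8.441e-06 in limma) and 0.66 at 1000 ppm (adjusted p = 6.512e-09), on the log2 scale. It was called on days 1 and 3 at both doses, with 0.62 and 0.59 at 500 ppm and 0.79 and 0.99 at 1000 ppm. The 500 ppm calls were lost with the 7 arrays placed by their labels (adjusted p = 0.406 on day 1 and 0.0851 on day 3 in limma). On day 1 the call was also lost without control replicate 1 or 3 or 500 ppm replicate 2 or 3 (adjusted p = 0.0552 to 0.111). On day 3 it was lost without control replicate 1 or 3 or 500 ppm replicate 1 or 2 (adjusted p = 0.0770 to 0.144). With the array run as a fixed block the daily call at 1000 ppm on day 3 held (adjusted p = 0.000274). The calls at 500 ppm on days 1 and 3 and at 1000 ppm on day 1 were lost (adjusted p = 0.113, 0.728 and 0.269).

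Slco1a1 (Oatp1a1), the adjacent gene and a carrier of bile acids and steroid conjugates, went the other way. Its signal (lowest, median and highest) was 2554, 3146 and 3463 in controls, 2230, 2952 and 3433 at 50 ppm, 2267, 2613 and 3069 at 500 ppm and 2228, 2689 and 3097 at 1000 ppm. The ranges overlapped, with 4 of 12 arrays at 500 ppm and 3 of 12 at 1000 ppm below the lowest control. The averages were 0.861 times control at 500 ppm (log2 -0.22 ± 0.06, adjusted p = 0.0157 in limma) and 0.860 times at 1000 ppm (log2 -0.22 ± 0.06, adjusted p = 0.0101).

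No single day passed the test for Slco1a1 on the deposited scale. At 1000 ppm on day 3 its signals were 2572, 2575 and 2308, against 3151, 3427 and 2926 in controls, without overlap (0.785-fold, adjusted p = 0.0914 in limma). At 500 ppm on day 7 they were 2577, 2375 and 2267, against 2897, 3168 and 3141 in controls, also without overlap (0.784-fold, adjusted p = 0.0884). On day 1 the log2 changes were -0.03 and -0.05 at 500 and 1000 ppm. After division of each array by its median, Slco1a1 was called at 500 ppm on day 7 (log2 -0.58, adjusted p = 0.00285) and at 1000 ppm on day 14 (log2 -0.48, adjusted p = 0.0105, against -0.25 as deposited).

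Slco1b2, the liver-specific bile acid and statin carrier, and Slco2b1, which takes up steroid sulfates, were not called at any dose or day from their brighter probesets. Slco1b2 had signals (lowest, median and highest) of 12342, 15206 and 17491 at 1000 ppm, against 13938, 15831 and 18258 in controls. Its average at 1000 ppm was 0.922 times control, with an interval of 0.851 to 0.998 and an adjusted p of 0.18 in limma. Slco2b1 ran at 1924, 2272 and 2381 at 1000 ppm, against 1917, 2192 and 2615 in controls, an average of 0.987 times control with an interval of 0.924 to 1.06.

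**Figure D3:**
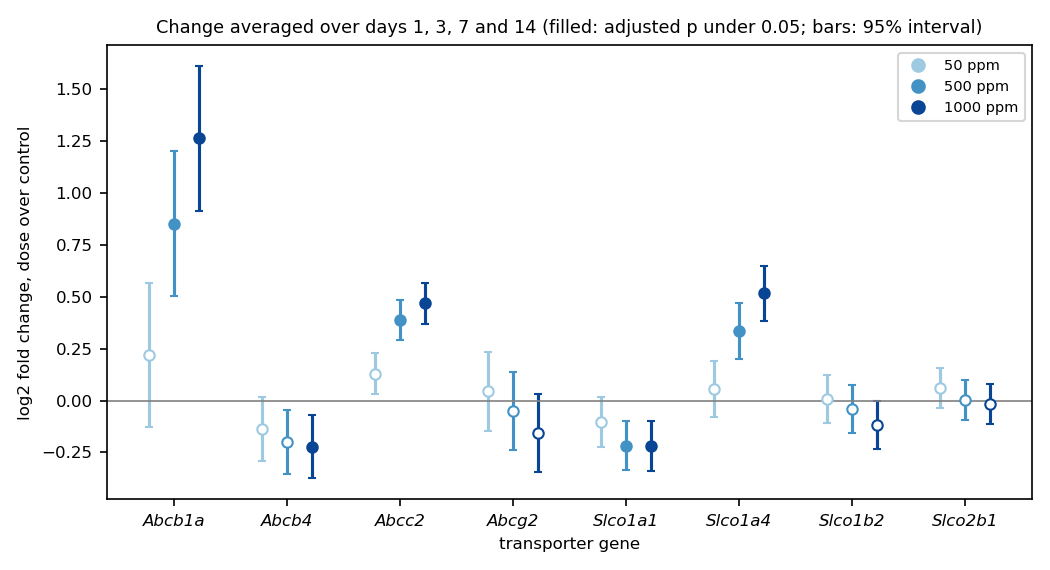
Log2 fold change of each dose over control, averaged over the 4 days, for the 8 transporter genes tested, with points filled where called and bars for the 95% interval. Abcb1a, Abcc2 and Slco1a4 are filled above 0 at 500 and 1000 ppm, Slco1a1 below 0 at both, and Abcb4 below 0 at 1000 ppm.

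Doses were also set against each other. Between 500 and 50 ppm, 3 of 8 genes were called, all higher at 500 ppm, where 3.65% of 12446 probesets were called higher. They were Abcb1a (1.55-fold, adjusted p = 0.0214 in limma), Abcc2 (1.20-fold, adjusted p = 0.000577) and Slco1a4 (1.21-fold, adjusted p = 0.00787). All 3 calls were lost when the 7 arrays were placed by their labels (adjusted p = 0.0751, 0.105 and 0.142). That placing kept the calls of the probeset shared with Abcb1b (log2 0.76, adjusted p = 5.011e-05 as placed by animal) and of the dimmer Slco1a4 probeset (0.41, 0.000177). It ended that of the dimmer Abcb1a probeset (adjusted p = 0.00542 by animal and 0.144 by labels). The Abcb1a call was also lost without replicate 1 of day 3 at 500 ppm (adjusted p = 0.0520).

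Between 1000 and 500 ppm, limma called 0 of 8 genes and 0% of 12396 probesets, with 2 of the 8 at an unadjusted p under 0.05. Abcb1a was 1.33-fold at 1000 relative to 500 ppm, with an interval of 1.04 to 1.69, and Slco1a4 was 1.13-fold with an interval of 1.03 to 1.24. For Abcc2 the fold was 1.06, with an interval of 0.988 to 1.13. These intervals do not show that the doses act alike. Over all doses at once, a moderated F test in limma called Abcb1a, Abcc2, Slco1a1 and Slco1a4, 4 of 8, where 14% of 12070 probesets were called.

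Day by day, and from the brightest probeset of each gene only, the genes gave 10 calls in 12 comparisons. At 50 ppm limma made 0 calls among 32 gene and day values, of which 2 had an unadjusted p under 0.05. The share of all probesets called was 0.0142%, 0.102%, 3.66% and 0.112% on days 1, 3, 7 and 14. At 500 ppm Abcc2 was called on days 1 and 3, where 0.554% and 0.865% of probesets were called higher. None of the 8 was called on days 7 and 14, where 3.5% and 1.51% of probesets were called in either direction, although 7 of 16 values had an unadjusted p under 0.05. At 1000 ppm 3 of 8 genes were called on each of days 1 and 3 (1.69% and 2.19% of probesets were called higher), and Abcc2 alone on days 7 and 14 (1.23% and 2.08%).

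**Figure D4:**
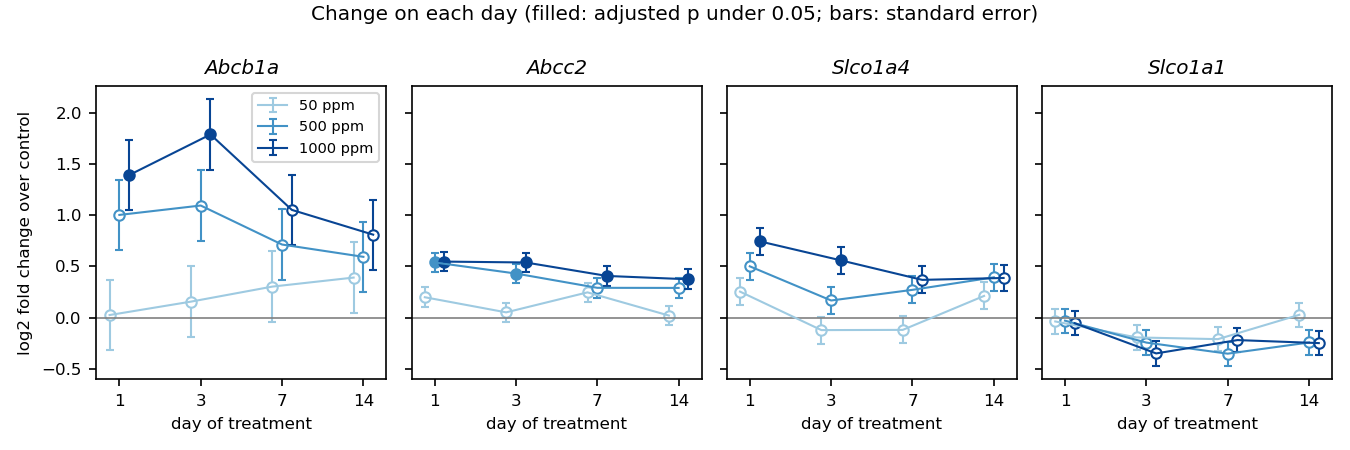
Log2 fold change over same-day control (points, filled where called, with bars for the standard error) against the day of treatment, for the 4 genes with a dose effect and for each dose. At 1000 ppm, Abcb1a has its highest point on day 3 (1.79) and its lowest on day 14 (0.81), and Abcc2 is filled on each day.

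Point estimates at 1000 ppm were smaller on day 14 than on day 1 for Abcb1a, Abcc2 and Slco1a4, and this difference was tested by its own contrast. All 3 arrays at 1000 ppm on day 14 were of run 1, which listed fewer signals and had the highest median signal (526.5, against 444.2 to 476.6 in other runs). Of the day 1 controls 2 were of that run, and of the day 14 controls none. On the log2 scale it was -0.58 ± 0.49 for Abcb1a, -0.17 ± 0.14 for Abcc2 and -0.36 ± 0.19 for Slco1a4 (SE). By limma, 0 of 8 genes were called at 500 ppm (0.0596% of 13429 probesets) and 0 at 1000 ppm (1.02% of 12989), while 2 of 16 values had an unadjusted p under 0.05. Both of those were of Slco2b1, at 0.33 and 0.35 (adjusted p = 0.450 and 0.175). After each array was divided by its median, 4 genes were called lower on day 14 at 1000 ppm, where that scaling moved the median of all probesets to -0.30. They were Abcb4 (-0.69), Abcc2 (-0.51), Slco1a1 (-0.53) and Slco1a4 (-0.69). Control rats on day 14 against day 1 gave 0 calls among the 8 genes, none at an unadjusted p under 0.05, and 0.149% of 14076 probesets.

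The runs were examined because most groups met their controls in other runs. Within each of the 6 runs, dosed arrays were set against the control arrays of that run over all days. Abcb1a was higher in 6 of 6 runs at 500 ppm (log2 0.51 to 1.49) and at 1000 ppm (0.71 to 2.02). Abcc2 was higher in 6 of 6 at 500 ppm (0.21 to 0.66) and 1000 ppm (0.22 to 0.72), as was Slco1a4 (0.03 to 0.50 and 0.39 to 0.71). Slco1a1 was lower in 6 of 6 at 500 ppm (-0.41 to -0.07) and 1000 ppm (-0.29 to -0.12). Abcb4 was lower in 5 of 6 runs at 500 ppm and 4 of 6 at 1000 ppm. Slco1b2, which was not called, was lower in 5 of 6 runs at 500 ppm and 6 of 6 at 1000 ppm (-0.37 to -0.006). The same direction in all 6 runs was thus not limited to called genes. These pairs mix days.

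With the run as a fixed block, the averages of Abcb1a, Abcc2, Slco1a4 and Slco1a1 stayed called at both doses. The daily calls fell to 3 of 10, those at 1000 ppm on day 3: Abcb1a (log2 1.84, adjusted p = 0.0179 in limma), Abcc2 (0.61, adjusted p = 0.00232) and Slco1a4 (0.62, adjusted p = 0.0335). That block multiplied the variance of daily comparisons by 1.52 to 3.98 and of averages by 1 to 1.09. A daily comparison within 1 run, of 1 rat against 1, could be had in 4 cases. At 1000 ppm on day 3 it gave log2 2.61 for Abcb1a, 0.39 for Abcc2, 0.78 for Slco1a4 and -0.34 for Slco1a1. The other cases were 50 ppm on day 1, 50 ppm on day 7 and 500 ppm on day 1. In that order Abcb1a gave -0.30, 1.14 and 0.47, and Abcc2 gave 0.29, 0.10 and 0.55. Slco1a4 gave 0.45, 0.05 and 0.77, and Slco1a1 gave -0.07, -0.38 and 0.11. A pair of single rats thus also differed at 50 ppm, where none of these genes was called from its brightest probeset.

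Where a gene had 2 probesets, 50 ppm on day 7 set them apart. The dimmer probeset of Slco1a4 read 3522, 4122 and 4481 at 50 ppm, against 5473, 5953 and 5878 in controls (0.698-fold, adjusted p = 0.0270 in limma). That of Slco1b2 read 8857, 8143 and 8636, against 11164, 12051 and 11104 in controls (0.747-fold, adjusted p = 0.0128). That of Slco2b1 read 902, 843 and 612, against 1293, 1505 and 1401 in controls (0.555-fold, adjusted p = 0.0173). In the brighter probesets of these 3 genes the log2 changes were -0.12, -0.01 and 0.12. Of all probesets, 3.02% were called lower in that comparison, and 2 of the 3 rats are labelled otherwise. Placed by labels, the 3 dimmer probesets had log2 changes of -0.18, -0.22 and -0.40 and lost their calls (adjusted p = 0.799, 0.668 and 0.692). They lost them as well without the 7 arrays (adjusted p = 0.400, 0.269 and 0.464) and with the run as a fixed block (adjusted p = 0.100, 0.142 and 0.369). Single arrays also ended these calls: control replicates 1, 2 and 3 or 50 ppm replicate 1 for Slco1a4 (adjusted p = 0.0622 to 0.170), control replicate 2 for Slco1b2 (0.0560), and control replicate 2 or 3 or 50 ppm replicate 3 for Slco2b1 (0.0538 to 0.146). Over the 48 arrays the paired probesets correlated at r = 0.44 for Slco1b2 and 0.32 for Slco2b1.

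**Figure D5:**
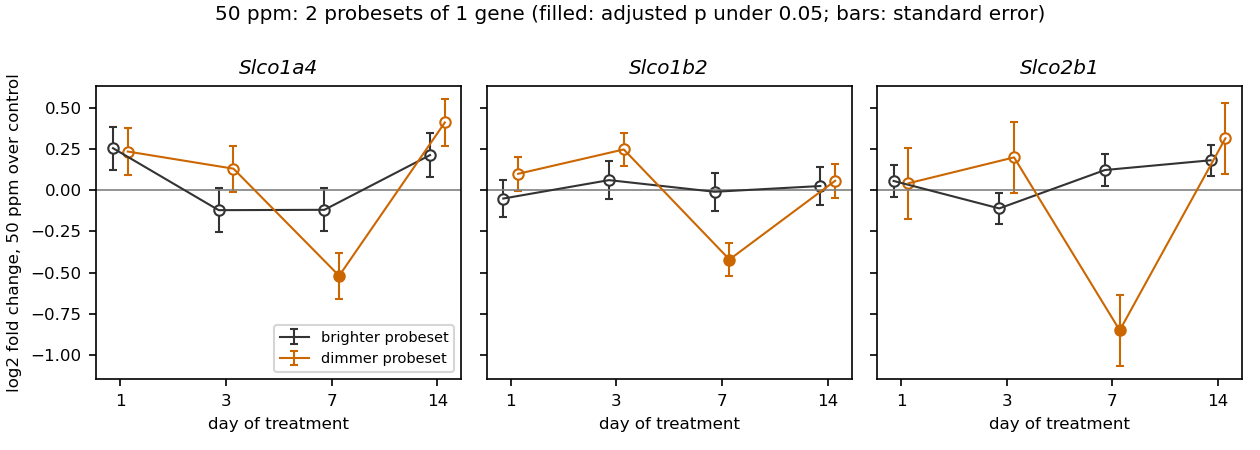
Log2 fold change at 50 ppm over same-day control (points, filled where called, with bars for the standard error) against the day of treatment, for the brighter and dimmer probeset of Slco1a4, Slco1b2 and Slco2b1. On day 7 only the dimmer probesets are called, at -0.52, -0.42 and -0.85.

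Across the 48 arrays, Abcb1a and Slco1a4 varied together (r = 0.75), as did Abcc2 with Slco1a4 (r = 0.65) and with Abcb1a (r = 0.62). Slco1a1 ran against Abcb1a (r = -0.38) and Abcc2 (r = -0.38). These are correlations of log2 signals that share dose groups and arrays. Among 8390 probesets of single genes listed on all arrays, the closest to Abcb1a and to Slco1a4 was Mnd1 (r = 0.80 and 0.83). Abcc2 was closest to Tkt (r = 0.80), the transketolase of the pentose phosphate pathway. Abcb4 was closest to Cpt1a (r = 0.67), Slco1a1 to Aadac (r = 0.67), Slco1b2 to Cd302 (r = 0.78), Slco2b1 to Ctsb (r = 0.64) and Abcg2 to Lsm2 (r = 0.60).

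Other transporters were read at 1000 ppm averaged over the 4 days, where 7.11% of all probesets tested were higher and 7.01% lower. Of 14 other ABC genes tested, 3 were higher and 3 lower, with a median log2 change of -0.10. Abcc4, the basolateral pump Mrp4, was 1.30-fold (adjusted p = 0.00349 in limma), and Abcb11, the bile salt export pump, 1.22-fold (adjusted p = 0.000337). Abcc9 and Abcc8, sulfonylurea receptor subunits of potassium channels, were 0.589-fold and 0.774-fold. Of 10 other uptake carriers, 2 were higher and 4 lower, with a median of -0.12. The organic anion transporter Slc22a8 was 0.536-fold (adjusted p = 0.000774), the nucleoside carrier Slc28a2 0.772-fold and the monocarboxylate carrier Slc16a1 0.794-fold.

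Genes that act upstream of or beside the transporters were read in the same comparison (7.11% of all probesets tested higher, 7.01% lower). These lists, like those of the other transporters and the markers, were chosen with earlier results of these data known. Their counts are therefore not independent of these data. Of 17 enzymes known to be induced through CAR, 16 were higher and none lower (median log2 0.91), with Aldh1a1 and Ces2c at 3.53 and 3.08. Of 10 targets of NRF2, the regulator of the antioxidant response, 7 were higher and none lower (median 0.37), with Nqo1 at 1.11. Of 13 xenobiotic receptors and partners, 3 were higher and 3 lower. Nr1i3 itself was 0.713-fold, while Ahr was 1.83-fold and Nfe2l2, which encodes NRF2, 1.30-fold. Of 7 scaffold and trafficking genes of the canalicular membrane, 1 was higher and 1 lower: Rab11a was 1.13-fold and Rdx, which encodes the Mrp2 anchor radixin, 0.916-fold.

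Markers of other cell types and of liver zones were read at 1000 ppm as well, again beside 7.11% of all probesets tested higher and 7.01% lower. Of 6 perivenous markers tested, 4 were lower, among them Cyp7a1 and Glul at log2 -1.05 and -0.86. The summed signal of the 8 perivenous markers on the array was 52234 to 70307 at 1000 ppm, against 63078 to 98541 in controls. Of 9 periportal markers 2 were lower, with sums of 130991 to 163722 at 1000 ppm and 133836 to 199822 in controls. Of 6 Kupffer cell markers 2 were lower (sums of 10081 to 15804 at 1000 ppm and 10707 to 19285 in controls), and of 6 stellate cell markers 1 was lower (sums of 7556 to 11177 at 1000 ppm and 8879 to 12318 in controls). The bile duct marker tested, Epcam, was higher at log2 0.53 (sums of 3 markers of 617 to 1304 at 1000 ppm and 511 to 966 in controls). No endothelial or blood marker tested was called, of 4 and 3. No marker with a probeset was unlisted on all arrays. An unlisted signal added nothing to a sum, so sums also vary with how many markers an array listed. Only 5 of the 8 perivenous, 4 of the 7 stellate and 1 of the 3 bile duct markers were listed on every array. All 9 periportal and all 6 Kupffer cell markers were. The part of these markers in the transporter values was not tested.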

How the data were processed

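Hepatic RNA of 48 rats was hybridized to 1 Affymetrix array each. The deposited intensity values are MAS5 signals, made by the authors with 1 value per probeset on a linear scale. A second deposited table holds ratio values of 776 probesets, each signal divided by its median over the arrays by the authors, and served only as a check; it holds 6 of the 14 transporter probesets. No column of the authors' comparisons was used, and 0 per-sample columns were left unused. Gene symbols came from the platform annotation.

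A linear model of the log2 signal with 16 group means was fitted in R 4.3.3, using the variance moderation of limma 3.58.1 and leaving unlisted signals missing. The filter required 90 signal units or more on 3 arrays or more and kept 18073 of 31042 probesets, after 57 controls were removed. Tests needed 2 listed signals or more in every group involved. The Benjamini-Hochberg adjustment covered all probesets tested in a comparison. The number of arrays limits the precision. All averages and comparisons between doses share arrays, the controls included. Labels name separate animals. The fit was tested on simulated data with known changes.

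All 9 transporters are named. From each other list at most the 4 called genes with the largest change at 1000 ppm are named, and for each transporter up to 2 of the genes closest in correlation. Members and lists were chosen with earlier results of these data known. Alternatives were 2 other scalings, the run as fixed or random block, both placings of the 7 arrays, other filters, the title number as block, the mean over probesets, the methods' 2-way analysis of variance and leaving out each array.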

Additional observations from a re-analysis of the deposited data

Results flagged for a closer look

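At 50 ppm, 3 dimmer probesets of uptake carriers moved in opposite directions on different days, with all 3 rats outside the same-day controls each time. They were picked by that rule, and the share of all probesets that meet it is not given. For Slco1a4 the log2 ratio of mean signals to control was 0.231 on day 1 and -0.513 on day 7. For Slco1b2 it was 0.247 on day 3 and -0.421 on day 7. For Slco2b1 it was 0.322 on day 14 and -0.833 on day 7. The differences between days were not tested. Of the 3 rats at 50 ppm on day 7, 2 carry labels of another group.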

How the results depend on the processing

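No transporter value changed direction under an alternative, among the values called. Of 51 called probeset values, 51 held their call without the filter on low signals, with the run as a random block and on probesets listed on all arrays, 49 under quantile normalization and 49 after division by the array median. That number was 46 without the 7 arrays, 32 with the 7 arrays placed by their labels and 30 with the run as a fixed block. From the brightest probesets, the 10 daily calls became 3 with the run as a fixed block and 6 with placing by labels. The 3 calls of these probesets between neighbouring doses, all of 500 against 50 ppm, became 0 with placing by labels. The day 14 minus day 1 calls went from 0 to 4 after division by the median. The methods' 2-way analysis of variance called 2 genes with a dose effect (Abcb1a and Slco1a4), against 4. It tests only probesets with a 1.5-fold change, and these were the 2 genes that had one. Abcc2 and Slco1a1 did not enter that test, so it says nothing about their dose effects. With the title number as a replicate block the daily calls were 12 and the averaged calls 9, against 10 and 9, and it removed no call. The labels do not say that a title number marks a shared litter, batch or day. Residuals of 358 same-numbered pairs of arrays correlated at -0.229 to 0.3 (median 0.0244, against -0.0163 for differently numbered pairs). Of 48 arrays, 29 were nearest to one with their own number. The number to be had without any pairing is not given, so these values do not decide whether a pairing exists. The main fit used none. Without each array in turn, daily calls ranged from 9 to 11, averaged calls from 8 to 10, calls of 500 against 50 ppm from 2 to 3 and dose effects from 4 to 5. Quantile normalization moved the median log2 change of all probesets beyond 0.1 on day 3 at 50 ppm (-0.115), day 7 at 500 ppm (-0.191), day 14 at 1000 ppm (-0.18) and in the 1000 ppm response on day 14 minus day 1 (-0.237), and division by the array median gave -0.147, -0.22, -0.216 and -0.302. Slco1a1 at 500 ppm on day 7 was also called after quantile normalization (log2 -0.44, adjusted p = 0.0163 in limma). The causes of these changes were not tested. With 3 arrays a group, changes of the size seen for Slco1a1 were not called on a single day under the deposited scaling, and Abcc3 gives no fold change.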
